A study of Mus musculus with 12 samples.

Results

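The genes described here encode lysosomal proteases, hydrolases and membrane proteins, together with subunits of the proton pump that acidifies the lysosome. They were chosen by symbol from a list of 39 genes, and all 39 were found among the 22294 genes of the deposited table. The list was drawn up with earlier results of these data known, which limits what counts set beside all genes can show. By role they are 9 cysteine proteases (8 cathepsins and legumain), 4 other proteases, 7 glycosidases, 6 lipid hydrolases and lipid carriers, 9 membrane or biogenesis proteins and 4 pump subunits. RNA was sequenced from F4/80-positive cells, the antigen of tissue macrophages, which had been pulled from enzymatically dissociated mouse endometrium with magnetic beads. The 12 libraries formed 4 groups of 3. Sham mice are described in the labels as sham and untreated. IUA mice were modelled for intrauterine adhesion, scarring that closes the uterine cavity, and their libraries are titled Matrigel. Control MSC and Primed MSC mice had the same adhesion model and received mesenchymal stem cells (MSC), which the study's title gives as human umbilical cord cells, either as control cells or after priming with inflammatory cytokines. The role of Matrigel, the cell dose, the timing, the strain and the age of the mice are not given in the sources used here, nor is whether a library pooled several animals. The p-values below therefore measure the spread between these libraries, which may in part be technical.

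Lysosomes are acidic organelles in which proteases, glycosidases and lipid hydrolases break down material taken up by the cell, and macrophages depend on them to clear dead cells and matrix. Most of the enzymes work only at the low pH set up by the V-type ATPase, a proton pump, and are enclosed by a membrane rich in the glycoproteins LAMP1 and LAMP2. Transcription factors of the MiT/TFE family, among them TFEB, TFE3 and MITF, bind E-box motifs in the promoters of many lysosomal genes and raise their expression together.

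Because that motif links many of the genes, their promoters were searched on both strands for the 6-letter E-box CACGTG and for its 8-letter form TCACGTGA, which contains the E-box. The windows ran from 250 bases before to 50 bases after each RefSeq start site of build GRCm38.p6. Of the 39 genes, 32 had an entry, and 13 of these (40.6%) held the E-box, against 8.09% of 27025 genes in the same RefSeq table and 7.15% of its 32851 windows. The 8-letter form stood in 7 of the 32 (21.9%), against 1.12% of genes and 0.974% of windows. A match describes the letters of a window and does not show that a factor binds there. The 150 bases before the start are given for 4 genes that hold the motif, chosen because they show it singly and in clusters, and for the neighbouring protease genes Ctss and Ctsk, which hold no E-box in the window and whose levels are followed through the results. Capitals mark the E-box, or the 8-letter form where the flanking letters complete it.
Lamp1, chr8:13159011-13159160, plus strand: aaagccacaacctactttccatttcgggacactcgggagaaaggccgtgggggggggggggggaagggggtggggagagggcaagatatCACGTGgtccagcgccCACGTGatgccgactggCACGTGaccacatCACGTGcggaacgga
Mcoln1, chr8:3500369-3500518, plus strand: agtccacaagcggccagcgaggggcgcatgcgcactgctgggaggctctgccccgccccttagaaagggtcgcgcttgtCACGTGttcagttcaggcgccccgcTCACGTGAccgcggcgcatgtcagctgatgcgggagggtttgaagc
Ctsd, chr7:142387828-142387977, minus strand: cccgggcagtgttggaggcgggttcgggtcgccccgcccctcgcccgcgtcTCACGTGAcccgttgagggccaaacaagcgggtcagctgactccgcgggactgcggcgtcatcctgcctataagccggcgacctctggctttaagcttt
Ctsa, the second of its RefSeq starts, chr2:164833623-164833772, plus strand: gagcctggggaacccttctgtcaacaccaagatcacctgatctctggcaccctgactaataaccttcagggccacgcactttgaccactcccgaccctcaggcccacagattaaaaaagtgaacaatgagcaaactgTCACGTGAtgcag
Ctss, chr3:95526636-95526785, plus strand: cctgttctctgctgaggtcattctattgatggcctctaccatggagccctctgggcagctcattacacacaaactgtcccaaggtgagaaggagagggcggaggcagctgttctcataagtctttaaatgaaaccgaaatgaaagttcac
Ctsk, chr3:95499060-95499209, plus strand: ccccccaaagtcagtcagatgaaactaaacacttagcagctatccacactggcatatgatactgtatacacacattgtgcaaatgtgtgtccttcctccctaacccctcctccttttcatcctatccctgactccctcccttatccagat
Lamp1 held 4 E-boxes within 61 bases of its start, none of them the 8-letter form. Mcoln1 held 2 E-boxes, 1 of them the 8-letter form, and Ctsa held the 8-letter form on either side of its second start. Ctsd held a second E-box farther upstream than the stretch shown.

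**Figure D1:**
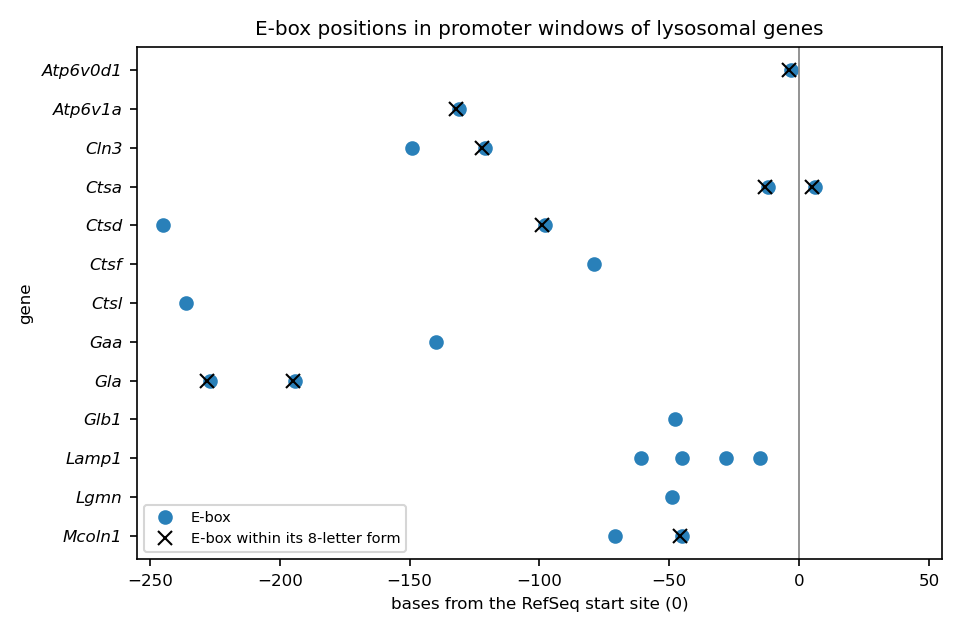
Position of each E-box (circles) and of its 8-letter form (crosses) in the promoter windows of the 13 lysosomal genes that hold one, in bases from the RefSeq start site at 0. The 4 E-boxes of Lamp1 all lie within 61 bases of the start, whereas those of Gla and Ctsl lie more than 190 bases before it.

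All 39 genes passed the filter on low values (at least 1 FPKM in at least 3 libraries), as did 11604 genes in all. FPKM scales fragments by transcript length and by the library's total, so it compares levels between genes per length. The steps between low FPKM values placed the libraries at about 15300000 to 23600000 mapped fragments. At that depth the thinnest value among the 39 genes, Tfeb in IUA replicate 3, rested on about 26 fragments, and those of Ctse on 36 or more. Adgre1, which encodes the F4/80 antigen, ranged over 205 to 256 FPKM for Sham, 401 to 476 for IUA, 837 to 1039 for Control MSC and 983 to 1382 for Primed MSC. Krt8 and Krt18, keratins of simple epithelia, summed to 1.198 to 2.132% of the FPKM of a Sham library and 0.203 to 0.744% of any other. In sorted bulk RNA, fewer cells of a type and less RNA per cell cannot be told apart. IUA replicate 3 stood apart in its GC dependence: the Spearman correlation of FPKM with transcript GC content across genes was -0.213 there, -0.124 and -0.121 in the other IUA libraries, and between -0.111 and -0.051 in the remaining 9.

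**Figure D2:**
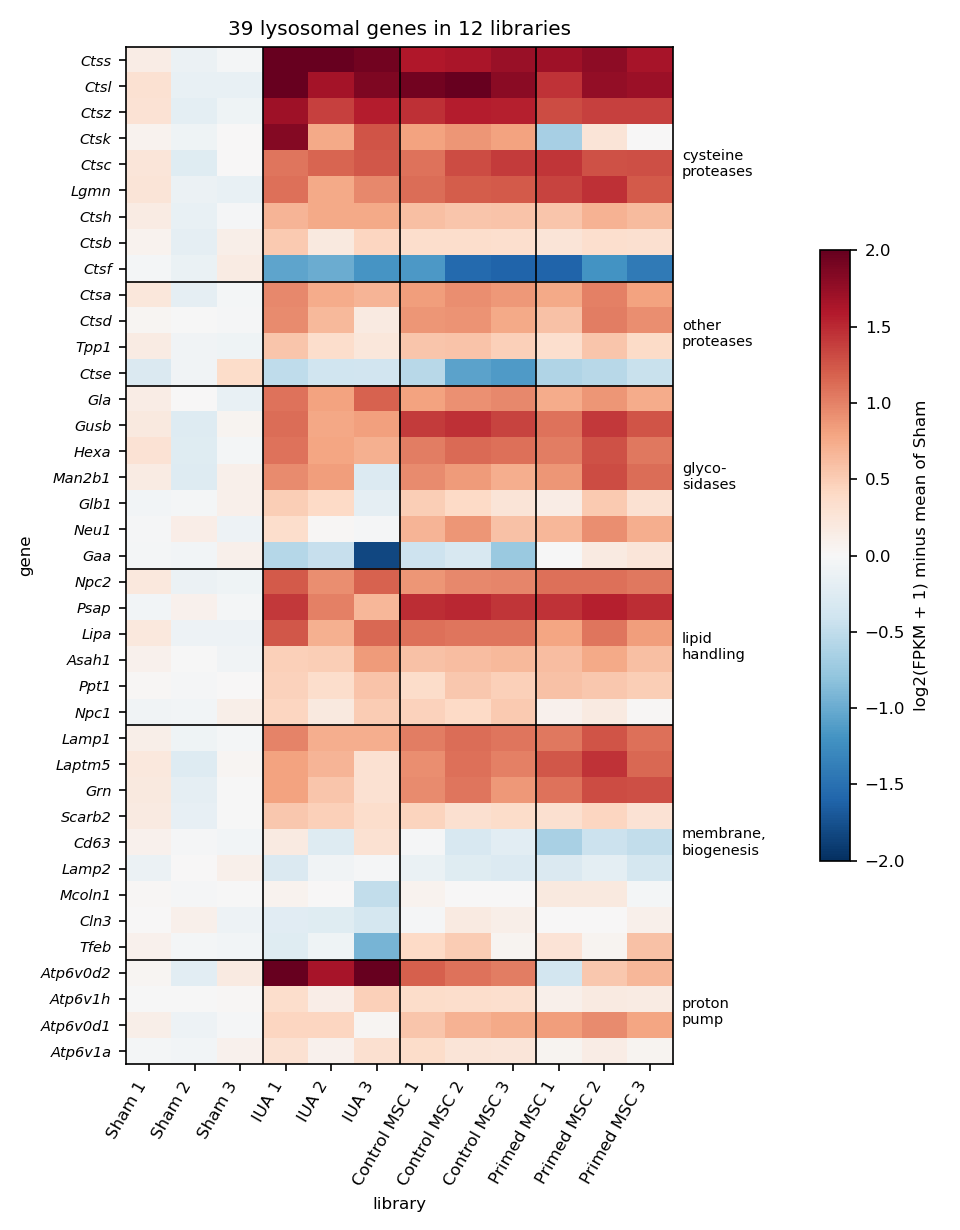
Heat map of log2(FPKM + 1) minus the mean of the 3 Sham libraries for the 39 lysosomal genes (rows, by role) in the 12 libraries (columns); the colour scale stops at 2 in either direction. Red fills most rows from IUA onward, the cathepsin gene Ctsf is blue throughout those groups, and Ctsk and Atp6v0d2 return toward white in Primed MSC.

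IUA set against Sham asks what changed in the F4/80-positive fraction once adhesions were modelled. Of the 39 genes, 28 rose, 3 fell (Ctsf, Gaa and Cln3) and 8 did not pass (limma, adjusted p under 0.05 over all 11604 genes). Across all tested genes, 11.1% rose and 45% fell. The median log2 change was 0.55 over the 39 genes and -0.35 over all genes. Together the 39 genes took up 2.03 to 2.31% of the summed FPKM of a Sham library, 3.52 to 4.04% of an IUA library, 3.68 to 3.75% of a Control MSC library and 3.72 to 4.07% of a Primed MSC library, so every Sham library lay below every other one. Scaling the libraries to a common median ratio moved the median of all genes to -0.00. Of the genes called, 51.5% were then higher, where 19.8% were without it. Of 11476 genes tested, 2657 rose and 2501 fell, where 1291 and 5226 of 11604 did without it. Of the 39 genes 32 rose and 1, Ctsf, fell. Neu1, Cd63, Glb1 and Man2b1, which had not passed, then rose by 0.51, 0.48, 0.63 and 0.90.

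Cell type markers moved in the same comparison. Of 15 macrophage genes, 14 rose, and their summed FPKM went from 12460 to 15220 in Sham to 32830 to 35770 in IUA. All 14 tested epithelial genes fell, from sums of 8233 to 14350 to sums of 1644 to 5482, and 10 of 11 endothelial genes fell. Of 8 tested neutrophil genes, 6 rose, with sums of 44.1 to 89.24 in Sham and 325.4 to 426.9 in IUA, and Ly6g and Elane were listed at 0 in every Sham library. The part of macrophages, endothelium and neutrophils in the result was not tested. With the mean of the epithelial genes as a covariate, 8 of the 31 lysosomal genes still passed, all higher: Ctss, Ctsl, Ctsz, Ctsc, Ctsh, Atp6v0d2, Npc2 and Gla. Among all genes the calls went from 6517 to 621 in that fit. The epithelial sums of Sham and IUA do not overlap, so the fit cannot separate epithelial content from group.

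Cysteine proteases moved most, with 8 of 9 higher, 1 lower and a median log2 change of 1.16. Ctss encodes cathepsin S (chromosome 3, 95526786 to 95556403), which cuts the invariant chain of MHC class II in antigen-presenting cells. It stood at 1291, 1077 and 1138.5 FPKM in Sham, 4902, 4727 and 4419 in IUA, 3523, 3630 and 3860 in Control MSC, and 3791, 4052 and 3669 in Primed MSC. All IUA libraries lay above all others, and both MSC groups lay between them and Sham. Neither difference from IUA passed in limma: -0.35 ± 0.10 in Control MSC (adjusted p = 0.111) and -0.29 ± 0.10 in Primed MSC (adjusted p = 0.0652). The log2 change in IUA was 2.00 ± 0.10 (SE, adjusted p = 2.67e-07), a ratio of means of 4.01. Ctsb, cathepsin B, with endo- and exopeptidase activity, was the highest of the 39 genes in each Sham library, at 2398 to 2933 FPKM, whereas Ctss was the highest in each of the other 9 libraries. The ratio of Ctss to Ctsb, which was looked at after the values were seen, was 0.388 to 0.455 in Sham, 1.21 to 1.52 in IUA, 1.01 to 1.12 in Control MSC and 1.08 to 1.19 in Primed MSC. Ctsb itself gained only 0.38 ± 0.11 (adjusted p = 0.0118), and under quantile normalization its change was -0.07.

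Ctsl, the endopeptidase cathepsin L, went from 160, 117 and 117 FPKM in Sham to 585, 412 and 476 in IUA (log2 change 1.90 ± 0.16, adjusted p = 8.92e-06). Control MSC libraries held 498, 581 and 457 FPKM and Primed MSC libraries 356, 443 and 430. No library of the 3 model groups reached down to Sham. Ctsz, a carboxypeptidase, stood at 340.01 to 478 FPKM in Sham and 1006 to 1270 in IUA (1.54 ± 0.13, adjusted p = 7.94e-06). Ctsc, dipeptidyl peptidase 1, which activates granule serine proteases, rose by 1.16 ± 0.13, legumain Lgmn, an asparaginyl endopeptidase, by 0.94 ± 0.13, and the aminopeptidase Ctsh by 0.73 ± 0.09. Lgmn was among the most abundant of the 39 genes, at 840 to 1118 FPKM in Sham and 1571 to 2012 in IUA.

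Ctsk encodes cathepsin K, a collagen-degrading protease best known from osteoclasts. It lies on chromosome 3 (95499256 to 95509362), 17423 bases before Ctss on the same strand, and was expressed far lower. Its FPKM was 9.63, 8.56 and 9.20 in Sham, 35.3, 16.14 and 23.2 in IUA, 16.66, 17.6 and 16.7 in Control MSC, and 5.37, 11.1 and 9.19 in Primed MSC. IUA and Control MSC lay above Sham in every library, and IUA replicate 2 lay below all 3 Control MSC libraries. Ctsk rose by 1.29 ± 0.26 in IUA (adjusted p = 0.00142). Ctsf, another cysteine cathepsin, was the one to fall: from 27.8, 26.1 and 32.3 FPKM in Sham to 13.2, 13.9 and 12 in IUA (-1.08 ± 0.15, adjusted p = 2.16e-04). It stood at 12.4, 9.06 and 8.79 in Control MSC and 8.70, 11.9 and 10.1 in Primed MSC, below Sham in each library. With the epithelial covariate its change in IUA was -0.90, with an adjusted p of 0.0591.

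**Figure D3:**
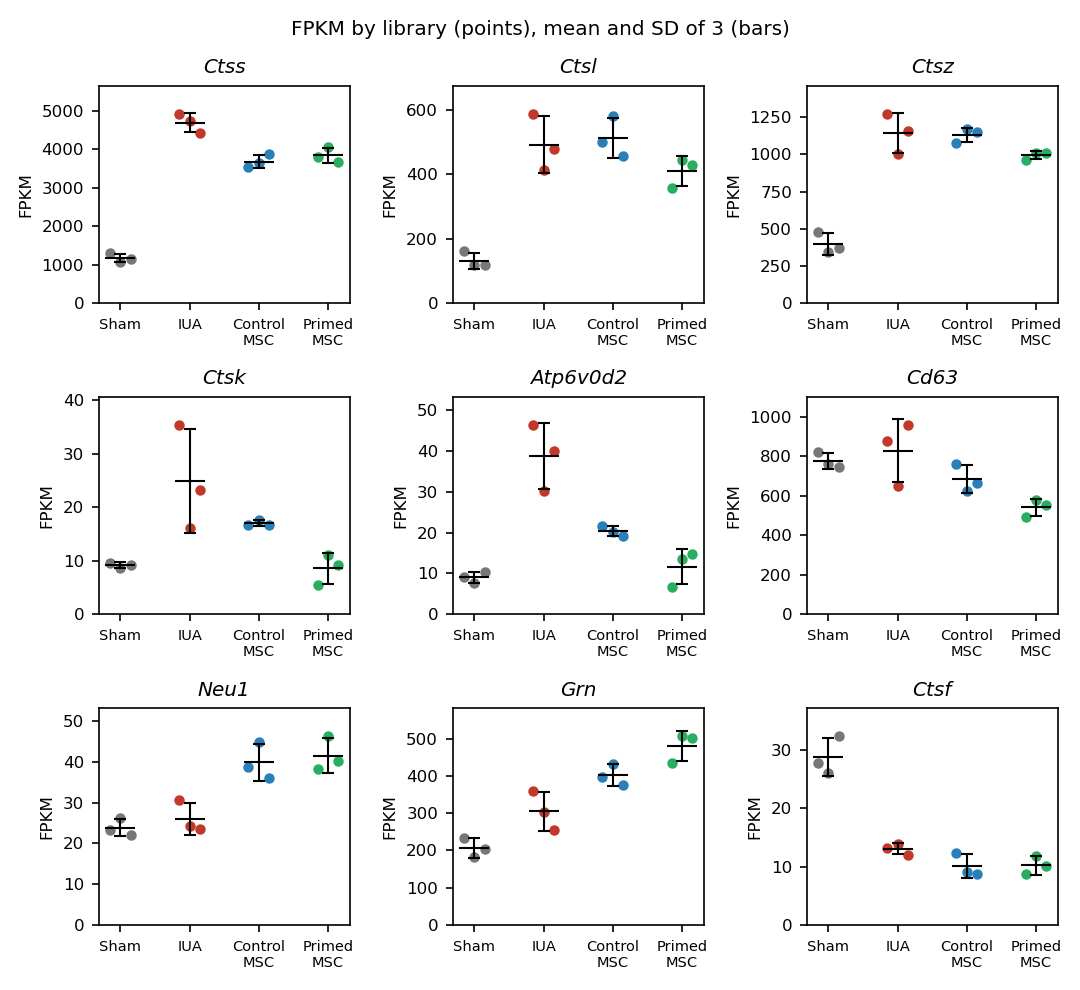
FPKM of 9 lysosomal genes in each library (points, 3 per group), with the mean and SD of each group (bars); every vertical axis starts at 0. Ctss, Ctsl and Ctsz are low in Sham alone, Ctsk and Atp6v0d2 are highest in IUA and near the Sham level in Primed MSC, and Neu1 is higher in both MSC groups than in Sham and IUA.

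Of the other proteases, 3 of 4 rose. Ctsa, a carboxypeptidase that also stabilises sialidase and beta-galactosidase, went from 326 to 429.6 FPKM in Sham to 594 to 717 in IUA (0.79 ± 0.12). Ctsd, an aspartic protease, rose by 0.59 ± 0.17 (adjusted p = 0.0105), with IUA replicate 3, at 1183 FPKM, much nearer to Sham (1019 to 1066) than the other IUA libraries (2009 and 1629). Tpp1, tripeptidyl peptidase 1, rose by 0.38 ± 0.11. The aspartic protease Ctse was the least expressed protease, at 2.37 to 4.32 FPKM in Sham and 1.92 to 2.16 in IUA (-0.43 ± 0.19, adjusted p = 0.0743), and did not pass.

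Glycosidases were mixed, with 3 higher, 1 lower and 3 that did not pass. Gla, alpha-galactosidase A, rose by 1.02 ± 0.11, Gusb, beta-glucuronidase, by 0.90 ± 0.13, and Hexa, the alpha subunit of beta-hexosaminidase, by 0.87 ± 0.14. Gaa, which degrades glycogen, stood at 18.8, 18.5 and 20.7 FPKM in Sham and 12.65, 13.7 and 4.75 in IUA, with replicate 3 far below its group. It fell by 0.95 ± 0.28 on the log2 scale (adjusted p = 0.0123). After correction for transcript GC content its change was -0.39 (adjusted p = 0.162), and with that correction and without IUA replicate 3 it was -0.07. Under median-ratio scaling alone it was -0.57 (adjusted p = 0.109). Man2b1, the lysosomal alpha-mannosidase, showed the same library low: 92.55 and 86.3 FPKM in IUA replicates 1 and 2, 39.3 in replicate 3, and 39.8 to 53.4 in Sham. Its log2 change was 0.50 ± 0.26 (adjusted p = 0.115), and 0.89 without replicate 3 (adjusted p = 0.00109). Glb1, beta-galactosidase, had 0.24 ± 0.16 (adjusted p = 0.232), and 0.44 without that library (adjusted p = 0.0116). Neu1, sialidase 1, was at 23.3, 26.2 and 22.1 FPKM in Sham and 30.5, 24.1 and 23.4 in IUA (0.11 ± 0.13, adjusted p = 0.471), groups that overlap.

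All 6 lipid genes rose, with a median log2 change of 0.82. Npc2, which hands cholesterol to the membrane protein NPC1, gained 1.11 ± 0.11, from 89.1 to 112 FPKM in Sham to 186 to 226 in IUA. Psap, the precursor of the saposins that lift glycolipids to their hydrolases, went from 102, 113 and 103 FPKM to 286, 216 and 169.6 (1.04 ± 0.15). Lipa, the acid lipase that releases cholesterol from its esters, gained 1.03 ± 0.14. Smaller rises were seen for Asah1, acid ceramidase (0.61 ± 0.11), Ppt1, palmitoyl-protein thioesterase (0.46 ± 0.09), and Npc1 (0.38 ± 0.11).

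Among 9 membrane and biogenesis genes, 4 rose, 1 fell and 4 did not pass, and their median was 0.08. Lamp1 went from 434, 377 and 391 FPKM in Sham to 793, 660.07 and 661 in IUA (0.81 ± 0.10, adjusted p = 1.24e-04). Lamp2, the gene of its partner glycoprotein, stood at 501, 543 and 583 in Sham and 445, 513 and 532 in IUA (-0.13 ± 0.10, adjusted p = 0.287). The ratio of Lamp1 to Lamp2, also looked at after the values were seen, lay below 1 in each Sham library (0.672 to 0.866) and above 1 in every other library (1.24 to 1.78 in IUA, 1.65 to 1.88 in Control MSC, 1.87 to 2.03 in Primed MSC). Laptm5, a lysosomal membrane protein of blood cells, rose by 0.59 ± 0.15, Grn, which encodes the lysosomal and secreted protein progranulin, by 0.55 ± 0.13, and Scarb2, which encodes the lysosomal membrane protein LIMP-2, by 0.45 ± 0.11. Cln3, the protein lost in a form of Batten disease, fell by 0.28 ± 0.10 on the log2 scale (adjusted p = 0.0295). This sign turned with the scaling: its change was 0.12 under median-ratio scaling, 0.03 under quantile normalization and 0.11 after GC correction, none of which passed. The tetraspanin gene Cd63 (0.08 ± 0.14), the calcium channel gene Mcoln1 (-0.14 ± 0.14) and Tfeb (-0.42 ± 0.22, adjusted p = 0.119) did not pass. Tfeb was at 2.33, 2.05 and 2.00 FPKM in Sham and 1.64, 1.93 and 0.64 in IUA.

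All 4 pump subunits rose, 3 of them by little: Atp6v1h by 0.32 ± 0.09, Atp6v0d1 by 0.30 ± 0.12 and the catalytic subunit gene Atp6v1a by 0.24 ± 0.09 (adjusted p = 0.013, 0.0469 and 0.0421). The calls of Atp6v0d1 and Atp6v1a were lost in 15 and 14 alternatives. Among these was leaving out any 1 library other than Sham replicate 1 or IUA replicate 3 for Atp6v0d1 (0.23 to 0.30), and other than Sham replicate 3 or IUA replicate 2 for Atp6v1a (0.20 to 0.24). Both passed with larger changes under median-ratio scaling (0.70 and 0.64), quantile normalization (0.47 and 0.32) and GC correction (0.75 and 0.47). Atp6v0d2 (chromosome 4, 19876841 to 19922605) encodes the alternative d subunit, known from osteoclasts and macrophages. It went from 9.15, 7.55 and 10.2 FPKM in Sham to 46.3, 30.1 and 40.05 in IUA (1.99 ± 0.24, adjusted p = 1.03e-04). The Sham and IUA values lie well apart.

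In mice that received cells, most lysosomal genes were again above Sham. Control MSC against Sham had 30 higher, 2 lower and 7 that did not pass, against a background of 14.1% higher and 42.7% lower among all genes. Primed MSC against Sham had 25 higher, 4 lower and 10 that did not pass, against 14.5% higher and 45% lower. With the epithelial covariate 10 of the 39 genes passed in Control MSC and 12 in Primed MSC, against 801 and 1398 of all 11604 genes. Under median-ratio scaling, the share of higher genes among all those called went from 24.8 to 52.8% in Control MSC and from 24.4 to 53.4% in Primed MSC. Of the 39 genes 34 and 33 were then higher, against 3052 and 3249 of all 11476 genes tested. Cell type markers moved here too: in both MSC groups against Sham, 15 of 15 macrophage genes rose, and 14 of 14 epithelial, 11 of 11 endothelial and 9 of 9 smooth muscle genes fell. Macrophage sums were 35350 to 38500 with Control MSC and 34970 to 37250 with Primed MSC, and epithelial sums 1598 to 4016 and 1605 to 2499. Of 11 stromal genes 7 and 6 fell, and of 8 neutrophil genes 5 and 4 rose. The part of these cell types in the result was not tested. The epithelial sums of Sham do not overlap those of either MSC group, so the covariate cannot separate epithelial content from group. The Sham libraries are shared by these comparisons and by IUA against Sham. The same 25 genes rose in both MSC groups, and Ctsf and Ctse fell in both. Ctsf changed by -1.43 ± 0.15 in Control MSC and -1.41 ± 0.15 in Primed MSC, and Ctse by -0.92 ± 0.19 and -0.53 ± 0.19. The fall of Ctse in Primed MSC was lost in 10 alternatives, among them median-ratio scaling (-0.23), GC correction (-0.17) and leaving out Sham replicate 2 (-0.57) or 3 (-0.35) or Primed MSC replicate 1 (-0.50) or 2 (-0.52), and its change was 0.06 with the epithelial covariate. Under median-ratio scaling or GC correction 1 of the 39 genes was lower in Primed MSC, against 2834 of 11476 and 3071 of 11604 genes in all. Among the genes that rose in both, Ctsl gained 1.96 ± 0.16 and 1.64 ± 0.16, Ctsc 1.26 ± 0.13 and 1.33 ± 0.13, Psap 1.47 ± 0.15 and 1.49 ± 0.15, and Gusb 1.40 ± 0.13 and 1.25 ± 0.13. Man2b1 and Neu1, which had not passed in IUA, rose in both MSC groups, Man2b1 by 0.84 ± 0.26 and 1.10 ± 0.26 and Neu1 by 0.72 ± 0.13 and 0.77 ± 0.13.

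The genes that passed against Sham only in Control MSC numbered 5, all higher: Atp6v0d2 (1.10 ± 0.24), Ctsk (0.83 ± 0.26), Npc1 (0.46 ± 0.11), Atp6v1h (0.36 ± 0.09) and Atp6v1a (0.28 ± 0.09). Their changes in Primed MSC were 0.28 ± 0.24, -0.13 ± 0.26, 0.10 ± 0.11, 0.15 ± 0.09 and 0.09 ± 0.09, and under median-ratio scaling Atp6v0d2, Npc1, Atp6v1h and Atp6v1a passed there too. Those that passed only in Primed MSC numbered 2, both lower: Cd63 (-0.52 ± 0.14) and Lamp2 (-0.27 ± 0.10), whose changes in Control MSC were -0.19 ± 0.14 and -0.21 ± 0.10. Passing in one comparison and not in the other does not show a difference between the cell preparations, and the direct comparison of them is given below. Both falls depended on scaling: the change of Lamp2 was 0.15 under median-ratio scaling and 0.03 after GC correction, and that of Cd63 was -0.10 (adjusted p = 0.602) and -0.29 (adjusted p = 0.182). With the epithelial covariate Cd63 did not pass either (-0.70, adjusted p = 0.0883). The change of Ctsk in Control MSC was -0.06 with the epithelial covariate. Cln3, Gaa, Glb1, Mcoln1 and Tfeb passed in neither. By the F test over the 4 groups, 36 of the 39 genes differed, against 67% of all genes.

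The comparisons with IUA ask what the given cells altered in mice with adhesions. Only the IUA libraries carry Matrigel in their titles, so that whatever it denotes cannot be told apart from the absence of the given cells. Against IUA, Control MSC had 0 of 39 genes higher and 0 lower by limma, where 0.724% and 0.129% of all genes passed. At an unadjusted p under 0.05, 9 were higher and 4 lower, but the share of all genes at that threshold was not taken. The changes ran from -0.88 (Atp6v0d2, adjusted p = 0.0935) to 0.74 (Tfeb, adjusted p = 0.118), and Neu1 came closest to the threshold (0.60 ± 0.13, adjusted p = 0.0583). Without IUA replicate 1, Neu1, Psap and Gusb passed, with changes of 0.72, 0.63 and 0.61. Without Primed MSC replicate 1, which only lends its spread to this comparison, Atp6v0d2 passed (-0.88, adjusted p = 0.0469).

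In Primed MSC against IUA, 10 genes rose, 3 fell and 26 did not pass, against 12.2% higher and 6.97% lower among all genes. The medians were 0.05 over the 39 genes and -0.03 over all. The 3 that fell were Atp6v0d2, Ctsk and Cd63. The 10 that rose were Gaa, Tfeb, Laptm5, Grn, Neu1, Atp6v0d1, Psap, Lgmn, Lamp1 and Cln3, of which 5 are membrane or biogenesis genes and 2 glycosidases. The number that passed was 8 without Sham replicate 2, 8 without IUA replicate 3, and 7, 8 and 7 without Primed MSC replicates 1, 2 and 3. Over all genes, 2219 passed in the fit to all libraries, and 1963, 1333, 1154, 1254 and 1369 in these fits. Leaving out any other library gave 9 to 15 of the 39, and 1964 to 2560 of all genes.

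Atp6v0d2 was at 6.71, 13.4 and 14.8 FPKM in Primed MSC, with 46.3, 30.1 and 40.05 in IUA, and Control MSC at 21.6, 20.05 and 19.2. The 3 groups did not overlap, and Primed MSC replicate 1 lay below every Sham library. The log2 change against IUA was -1.70 ± 0.24 (adjusted p = 0.0013), a ratio of means of 0.299. Atp6v0d1, which encodes the widely expressed form of the same subunit, moved the other way: 107, 116 and 103.6 FPKM in Primed MSC against 81.2, 80.8 and 61.2 in IUA (0.55 ± 0.12, adjusted p = 0.00901). The ratio of Atp6v0d2 to Atp6v0d1, looked at after the values were seen, was 0.135 to 0.173 in Sham, 0.373 to 0.654 in IUA, 0.19 to 0.245 with Control MSC and 0.0626 to 0.143 in Primed MSC. Ctsk fell by 1.42 ± 0.26 on the log2 scale (adjusted p = 0.00431), to values that lay around those of Sham. Its neighbour Ctss had -0.29 ± 0.10 (adjusted p = 0.0652).

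Cd63 was at 493, 577 and 553.5 FPKM in Primed MSC, 879, 648 and 957 in IUA and 822, 760 and 746 in Sham. On this scale all Primed MSC libraries lay below all of IUA and Sham, but the difference from Sham did not pass under median-ratio scaling or after GC correction, as given above. Its log2 change against IUA was -0.60 ± 0.14 (adjusted p = 0.0131). Without Primed MSC replicate 1 it was -0.53, with an adjusted p of 0.0556. Cd63 and Ctsk are also expressed by fibroblasts, and the summed FPKM of 12 stromal genes was 298.8 to 942.5 in IUA, 154.8 to 279 in Control MSC and 122.5 to 252.2 in Primed MSC, with 3 of 11 tested genes lower and none higher in Primed MSC against IUA. The part of stromal cells in these falls was not tested.

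Since Ctsk and Atp6v0d2 are known from osteoclasts, 6 osteoclast genes were read beside them. Dcstamp, needed for osteoclast fusion, rose in IUA (2.26 ± 0.23) and fell in Primed MSC against IUA (-0.87 ± 0.23, adjusted p = 0.0242). Acp5, the tartrate-resistant acid phosphatase, rose in IUA (2.11 ± 0.15) and was higher still in Primed MSC (0.99 ± 0.15 against IUA). Nfatc1, the transcription factor that drives osteoclast formation, fell in IUA (-0.92 ± 0.15), Ocstamp passed in neither, and Calcr and Oscar did not reach the filter. The genes of this list thus moved in both directions.

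Neu1 was at 38.2, 46.2 and 40.1 FPKM in Primed MSC and 38.6, 44.9 and 36.1 in Control MSC. All 6 lay above the 6 libraries of Sham and IUA. The change in Primed MSC against IUA was 0.66 ± 0.13 (adjusted p = 0.00637). Grn stood at 435, 506 and 501.5 FPKM in Primed MSC, 398, 433 and 376 in Control MSC and 359, 302.5 and 254 in IUA, with no overlap between the 3 groups (0.67 ± 0.13 for Primed MSC against IUA, adjusted p = 0.00695). Control MSC against IUA (0.41 ± 0.13, adjusted p = 0.145) and Primed against Control MSC (0.26 ± 0.13, adjusted p = 0.461) did not pass for Grn. Laptm5 rose from 508, 462 and 355 FPKM to 687, 787 and 639 (0.68 ± 0.15, adjusted p = 0.0106). Gaa stood at 19.3, 22.03 and 23.1 FPKM in Primed MSC, close to its Sham values (1.09 ± 0.28, adjusted p = 0.0194). The change of Gaa was 0.66 without IUA replicate 3 (adjusted p = 0.0134), and it did not pass without Primed MSC replicate 2 (1.07, adjusted p = 0.0572) or 3 (1.04, adjusted p = 0.0605), nor with the compared groups only (adjusted p = 0.06). Tfeb was at 2.78, 2.26 and 3.69 (0.73 ± 0.22, adjusted p = 0.0371), with every value above those of IUA, but its call was lost in 10 alternatives. Psap (0.46 ± 0.15), Lgmn (0.41 ± 0.13), Lamp1 (0.33 ± 0.10) and Cln3 (0.31 ± 0.10) passed with adjusted p of 0.0471, 0.0462, 0.0424 and 0.0421, just inside the threshold. In the same comparison 5 of 15 macrophage genes rose and none fell, among them Adgre1 (1.43 ± 0.14) and Csf1r (0.92 ± 0.23), and their part in these rises was not tested.

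**Figure D4:**
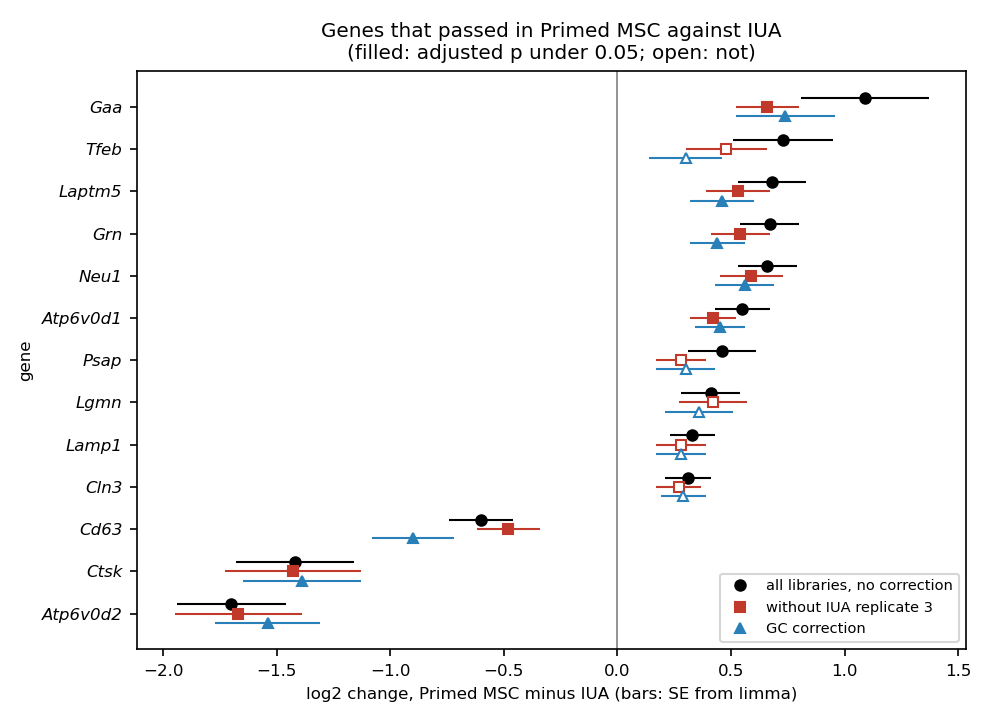
Log2 change in Primed MSC against IUA (points) with its SE (bars) for the 13 lysosomal genes that passed, in the fit to all libraries (circles), without IUA replicate 3 (squares) and after correction for GC content (triangles); filled symbols passed and open ones did not. Atp6v0d2, Ctsk, Cd63, Neu1, Grn, Gaa, Laptm5 and Atp6v0d1 are filled in all 3, whereas Tfeb, Psap, Lgmn, Lamp1 and Cln3 are filled in the first alone.

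The GC content of the genes' longest transcripts ran from 37.6% (Atp6v1h) to 63.2% (Tfeb), with a median of 50.9%. Across the 39 genes, which share the same 6 libraries, the change in Primed MSC against IUA followed GC content with a Pearson correlation of 0.489 and a Spearman correlation of 0.522. Without IUA replicate 3 these were 0.39 and 0.427, and after correction of each library for GC content 0.204 and 0.29. The GC correction left 5 genes higher (Neu1, Gaa, Grn, Laptm5 and Atp6v0d1) and 5 lower, the 3 above with Ctsz (-0.47, adjusted p = 0.0481) and Ctsf (-0.58, adjusted p = 0.0167). Of all 11604 genes, 1234 were then higher and 861 lower. Without IUA replicate 3, 5 of the 39 were higher and 3 lower, against 933 and 400 of all 11579 genes tested. With both steps together, Neu1 alone stayed higher (0.54, adjusted p = 0.0469), while Atp6v0d2 (-1.55), Ctsk (-1.40) and Cd63 (-0.69) stayed lower. Of all 11579 genes, 732 were higher and 394 lower in that fit. Atp6v0d2 and Ctsk have GC contents of 41.6% and 48.9%, and Cd63, at 58.1%, had the lowest change of the genes with a GC content above the median.

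**Figure D5:**
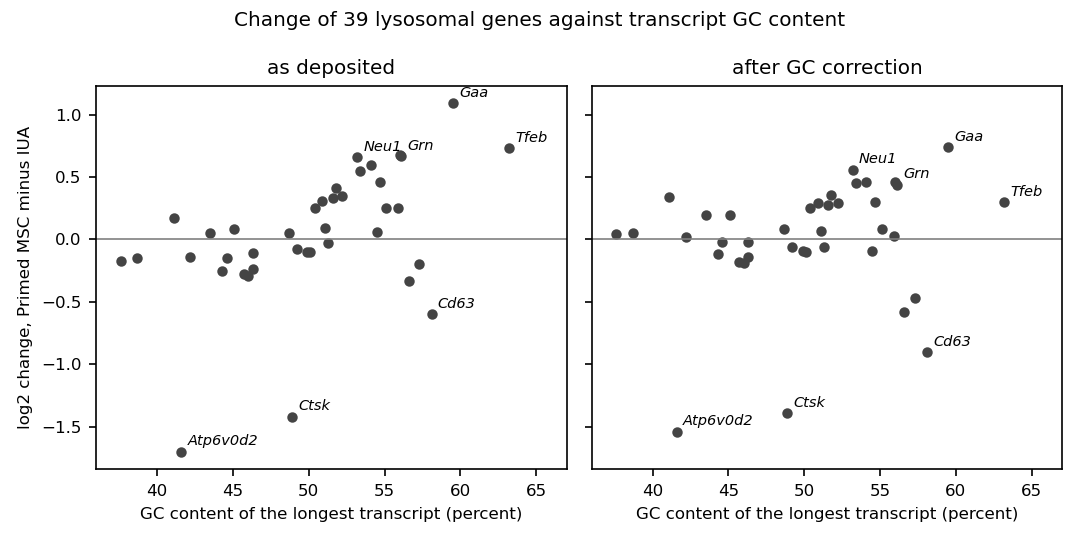
Log2 change in Primed MSC against IUA (vertical axis) of the 39 lysosomal genes against the GC content of the longest transcript in percent (horizontal axis), as deposited (left) and after correction of each library for GC content (right). Most genes with a GC content above the median lie above 0 on the left; Ctsk, Atp6v0d2 and Cd63 stand apart below 0 in both panels.

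The direct comparison of Primed MSC with Control MSC had 0 of 39 genes higher and 0 lower by limma, where 0.0776% and 0.0345% of all genes passed. The share of all genes at an unadjusted p under 0.05 was not taken. At that threshold 1 of the 39 was higher, Gaa, and 4 were lower, Atp6v0d2, Ctsk, Npc1 and Cd63. The changes of these were 0.63 ± 0.28, -0.82 ± 0.24, -0.96 ± 0.26, -0.36 ± 0.11 and -0.33 ± 0.14, with adjusted p of 0.369, 0.214, 0.181, 0.231 and 0.35. Each Primed MSC library lay above each Control MSC library for 6 of the 39 genes, and below for 9, Atp6v0d2 and Ctsk among them. The share of all genes without overlap was not taken. Without IUA replicate 3, whose spread enters the fit, Gaa passed (0.63, adjusted p = 0.0304).

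Genes with and without the E-box were read side by side, as a description. In IUA against Sham, 8 of the 13 with the motif rose and 3 fell (Ctsf, Gaa and Cln3), with a median of 0.30. Of the 19 without it, 14 rose and 0 fell, with a median of 0.59. Of the 3 falls, those of Gaa and Cln3 did not pass under median-ratio scaling or after GC correction. In Primed MSC against IUA, 5 of the 13 rose and 0 fell, and of the 19 without it 5 rose and 2 fell. Of these rises, Cln3, Lgmn and Lamp1 with the motif, and Psap and Tfeb without it, passed neither without IUA replicate 3 nor after GC correction. Across all tested genes, 11.1% rose and 45% fell in the first comparison, and 12.2% and 6.97% in the second. The 2 sets were not tested against each other. Among the largest rises, Ctsl holds an E-box, Ctss, Ctsz, Ctsk and Ctsc hold none, and Atp6v0d2 had no entry.

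Other genes of the lysosome were read from lists of 93 genes, 85 of which were tested. They are given from the fit to all libraries without GC correction alone. In IUA against Sham, 35 rose, 15 fell and 35 did not pass (median 0.26), where 11.1% of all genes rose and 45% fell. In Control MSC against IUA 1 rose, Acp5, and 0 fell, against 0.724% and 0.129% of all genes. In Primed MSC against IUA 21 rose and 6 fell, against 12.2% and 6.97% of all genes. Of 14 further pump subunits, 11 rose and 2 fell in IUA, among them Tcirg1 (1.02 ± 0.15), the subunit gene of the osteoclast pump, and Atp6v0b (0.75 ± 0.10). Atp6v0c rose in IUA (0.41 ± 0.09) and again in Primed MSC against IUA (0.36 ± 0.09), whereas Atp6v1e1 rose (0.60 ± 0.08) and then fell (-0.33 ± 0.08). Of 30 other hydrolases, 9 rose and 7 fell in IUA. Gm2a, the activator of ganglioside breakdown, gained 1.94 ± 0.16, and the phospholipase family member Pld4 1.01 ± 0.14. Of 17 other membrane proteins, 8 rose and 3 fell. Slc11a1, the metal transporter NRAMP1 of phagocytes, rose in IUA (1.11 ± 0.16) and in Primed MSC against IUA (0.99 ± 0.16), Ostm1 (0.81 ± 0.10) rose in IUA and did not pass in Primed MSC against IUA, and Laptm4b fell in both (-1.21 ± 0.22 and -0.94 ± 0.22).

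Sorting genes deliver enzymes to the lysosome. Of 9 such genes, 2 rose and 1 fell in IUA, against 11.1% and 45% of all genes. The mannose 6-phosphate receptor gene M6pr (0.53 ± 0.08) and Gnptab (0.63 ± 0.19), which makes the tag it reads, rose, and sortilin Sort1 fell (-1.03 ± 0.21). In Primed MSC against IUA, where 12.2% of all genes rose and 6.97% fell, 3 of the 9 rose and 0 fell. Among these were M6pr (0.41 ± 0.08) and Nagpa (0.85 ± 0.20), which finishes that tag. Of the 4 tested cathepsin inhibitors, cystatin B, Cstb, rose in IUA (0.95 ± 0.15). Cst3 (-0.45 ± 0.13) and Serpinb6a (-0.58 ± 0.19) fell in Primed MSC against IUA, and Cst7 passed in neither (0.60 ± 0.26 and -0.54 ± 0.26).

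Regulators of lysosomal genes gave 4 higher and 2 lower of 11 in IUA, against 11.1% and 45% of all genes. In Primed MSC against IUA they gave 4 higher and 1 lower, against 12.2% and 6.97%. Mitf rose in IUA (1.03 ± 0.13). Tfe3 fell in IUA (-0.82 ± 0.17, adjusted p = 0.00202) and rose in Primed MSC against IUA (1.23 ± 0.17, adjusted p = 0.00131). Tfeb also passed in the second comparison, but that call was lost in 10 alternatives, among them GC correction and leaving out IUA replicate 3. Tfe3 and the other regulators named here were not read under those alternatives. Flcn, the folliculin gene, whose product keeps TFEB and TFE3 out of the nucleus, had 0.17 ± 0.20 in IUA and rose in Primed MSC against IUA (1.09 ± 0.20), and Fnip2, its partner, rose in both (0.74 ± 0.15 and 0.57 ± 0.15).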

How the data were processed

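The authors deposited one table of FPKM values per gene and library. Per the submitters' processing notes, fastp, HISAT2, StringTie, RSEM and DESeq2 were used with mouse build mm10; versions are not given in the sources used here. FPKM divides by transcript length and library total, so a large shift in a few abundant genes moves all others.

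From these values, log2(FPKM + 1) was taken, genes with at least 1 FPKM in at least 3 libraries were kept (11604), and limma 3.58.1 in R 4.3.3 was fitted with 1 mean per group over all 12 libraries. Fold changes on this scale understate those of low genes. The 6 pairwise contrasts and an F test were called at p under 0.05 after Benjamini-Hochberg adjustment across the tested genes; ± values on log2 changes are SEs. The fit was tried on simulated libraries in which a small set of genes changed in 1 group. They held no shift of most genes, GC dependence or outlying library, so the trial does not cover those conditions. With 3 libraries a group, exact permutation tests reach no lower than p = 0.1 and were not used.

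For GC correction, each gene's log2 value minus its mean over the libraries was fitted on transcript GC content by lowess (span 0.3). The curve of each library was then subtracted. This step also evens out level differences between libraries: the median change of all genes in IUA against Sham went from -0.35 to -0.01. Changes under GC correction therefore hold a rescaling as well. Promoter windows came from RefSeq. FPKM steps did not give whole fragments closely enough for a count test. The 39 genes and all lists were chosen with earlier results of these data known. All 39 genes are named; for each pathway list the 4 tested genes with the smallest F test p were named, except 2 that are not reported here, and other genes only beside a result they bear on.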

Additional observations from a re-analysis of the deposited data

How the results depend on the processing

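In Control MSC against IUA the count of the 39 genes that passed was 1, Neu1, with a filter at FPKM 5 and 1 with the epithelial covariate. In Primed MSC against IUA it was 7 with the compared groups only, 8 with the replicate number as a block, 3 for log2 changes of at least 1, and, in alternatives chosen after seeing the data, 4 with GC correction and no IUA replicate 3 and 8 with GC correction and median-ratio scaling. With the epithelial covariate 8 (IUA), 10 (Control MSC) and 12 (Primed MSC) passed against Sham, and 19 by the F test. At log2 changes of at least 1 these comparisons with Sham gave 11, 13 and 14. Leaving out 1 library at a time gave 27 to 31 genes for IUA against Sham, 0 to 3 for Control MSC against IUA, 7 to 15 for Primed MSC against IUA, 0 to 1 for Primed against Control MSC, 28 to 34 for Control MSC and 25 to 30 for Primed MSC against Sham, and 31 to 36 by the F test. Signs turned for Cln3 in IUA against Sham (0.12 under median-ratio scaling, 0.03 under quantile normalization, 0.11 with GC correction, 0.12 and 0.15 with GC correction joined to no IUA replicate 3 or to median-ratio scaling). They also turned for Lamp2 in Primed MSC against Sham (0.15 under median-ratio scaling, 0.03 with GC correction, 0.03 and 0.10 in the joined settings), Ctsb in IUA against Sham under quantile normalization (-0.07), and with the epithelial covariate for Ctsk in Control MSC (-0.06) and Ctse in Primed MSC (0.06) against Sham. The cause was not tested. Among single-gene results, 1171 values with a library left out still passed in the same direction and 89 no longer passed; under other settings 1213 still passed, 137 did not and 12 changed sign. Over all genes, the 6517 (IUA), 6592 (Control MSC) and 6903 (Primed MSC) called against Sham became 621, 801 and 1398 with the epithelial covariate and 2159, 2492 and 2692 at log2 changes of at least 1. The 2219 of Primed MSC against IUA became 1381 with the compared groups only, 494 at log2 changes of at least 1, 1333 without IUA replicate 3, 1126 with GC correction as well, and 1154, 1254 and 1369 without Primed MSC replicates 1, 2 and 3. The 99 of Control MSC against IUA ranged from 5 to 329 and the 13 of Primed against Control MSC from 0 to 233 when a library was left out, and from 12 to 191 and from 0 to 230 under the other settings. Same-numbered libraries did not deviate together (18 pairs, r from -0.293 to 0.288, 3 above 0.1), so the numbers were not taken as pairs; the replicate block gave 29, 0, 8, 0, 32 and 29 genes in the 6 comparisons and 35 by the F test. Depth limits Tfeb and Ctse most, and 3 libraries per group limit every comparison.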
